A study of Mus musculus with 33 samples.

Results

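The globin genes encode the protein chains of haemoglobin. They were taken as the rows of the deposited table whose symbol begins with Hba- or Hbb-, which gave 8 of 56414 rows: the adult alpha genes Hba-a1 and Hba-a2, the embryonic alpha-like gene Hba-x, the adult beta genes Hbb-bs and Hbb-bt, and the beta-like genes Hbb-bh1, Hbb-bh2 and Hbb-y. RNA came from lymphoid organs of C57Bl/6 mice, some untreated and some given 0.5% nicotinamide (NAM, the amide of niacin) in their drinking water over 1, 3 or 14 days. The study names splenocytes and lymph node cells for this experiment and tissues in its general RNA methods. Whether whole organs or cell suspensions were used is thus not settled by these sources. By the labels the NAM was renewed every 7 days, and the general methods of the study give a shorter interval for its solutions. The labels give no other agent, allele or genotype, and no age or sex. Libraries labelled spleen numbered 5 in each of the 4 groups, and those labelled lymph node numbered 3 without NAM and 2, 4 and 4 after 1, 3 and 14 days of it. The labels do not say which lymph nodes were taken, whether nodes or animals were pooled, or whether both organs came from the same animals, so the p-values measure the spread between these libraries. All groups within a label were compared with the same untreated libraries.

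The tissue names below are only those of the labels, because marker genes went against them in 33 of 33 libraries. Glycam1, which high endothelial venules of lymph nodes make, had a normalised read count of 1.59 to 12.4 over the 13 lymph node libraries by label and 108167 to 214210.5 in the 20 labelled spleen. Spic, needed for red pulp macrophages of the spleen, had 6117 to 10491 and 774 to 1295, respectively. A normalised read count is a library's read count divided by its size factor, a scaling term for depth. Depth was 30424968 to 46733974 whole reads per library under the lymph node label and 18325061 to 54830743 under the spleen label. The labels were scaled separately, so changes were tested within a label, and across labels, apart from the markers above, only shares of reads, ratios and counts per globin read, the order of genes and the changes from untreated are set side by side.

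Each haemoglobin molecule pairs alpha chains with beta chains around haem, the iron-bearing group that binds oxygen. Erythroblasts, the nucleated precursors of red cells, transcribe the globin genes from an alpha cluster and a beta cluster under the control of factors such as GATA1 and KLF1, and reticulocytes, the youngest red cells without a nucleus, still carry globin mRNA. In mice the bone marrow and the spleen red pulp both make red cells, and lymph nodes normally do not. Embryonic globins belong to the first red cells of the yolk sac and are largely silent in adults.

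The adult copies are almost the same in sequence, and this bears on every value below. In the mm10 (GRCm38) GENCODE annotation, Hba-a1 (chr11:32283671-32284489 in the deposited table) and Hba-a2 (chr11:32296488-32297309) lie on the plus strand with 429 coding bases each, which differ at 1 base. Hbb-bs (chr7:103826523-103827988) and Hbb-bt (chr7:103812524-103813926) lie on the minus strand with 444 coding bases each, and these differ at 1 base. The substitutions, counted from 1 at the A of the start codon with the gene named first given first, are C381T between Hba-a1 and Hba-a2 and C417T between Hbb-bs and Hbb-bt. The coding stretch of 60 bases around each difference is shown because it holds the only coding letter by which a read can be told apart, and capitals mark that letter.
Hba-a1, coding bases 351 to 410: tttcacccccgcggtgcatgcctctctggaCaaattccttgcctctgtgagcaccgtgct
Hba-a2, coding bases 351 to 410: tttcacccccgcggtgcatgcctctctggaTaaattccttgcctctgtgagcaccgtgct
Hbb-bs, coding bases 385 to 444: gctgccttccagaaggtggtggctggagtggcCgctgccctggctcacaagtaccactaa
Hbb-bt, coding bases 385 to 444: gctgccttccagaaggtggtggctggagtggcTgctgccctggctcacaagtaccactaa
Of the 355 coding windows of 75 bases in Hba-a1, 306 (86.2%) also occur in Hba-a2. Of the 370 in Hbb-bs, 342 (92.4%) also occur in Hbb-bt. How reads that fit both copies were counted is not given in the sources used here, so the sum over a pair is firmer than its split. The other beta-like genes have 74.1% (Hbb-bh1), 70.3% (Hbb-bh2) and 74.3% (Hbb-y) coding identity with Hbb-bs, and Hba-x has 62.0% with Hba-a1. None of the 75-base coding windows of Hbb-bs occurs in those 3 beta-like genes, and none of Hba-a1 occurs in Hba-x.

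Promoter stretches are shown for an adult alpha and an adult beta gene, which moved together, and for embryonic Hbb-y, which had few or no reads. They come from RefSeq (GRCm38.p6), run 5′ to 3′ and end before the deposited row and before every exon in GENCODE. Capitals mark the motifs searched on both strands: the CACCC boxes CACACCC and CCACCC, the CCAAT box, the GATA letters AGATAA and the TATA-like letters ATAAAA and ATATAA. No match of CACACCC is also a match of CCACCC. The stretch of Hbb-bt stops inside a CCAAT on its own strand, 75 bases before the RefSeq start. It thus leaves out the ATATAA of Hbb-bt, 29 bases before that start.
Hba-a2, chr11:32296342-32296487, plus strand, 146 bases: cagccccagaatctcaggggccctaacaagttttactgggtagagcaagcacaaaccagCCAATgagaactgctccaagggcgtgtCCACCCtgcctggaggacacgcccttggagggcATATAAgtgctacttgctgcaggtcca
Hbb-bt, chr7:103813997-103814073, minus strand, 77 bases: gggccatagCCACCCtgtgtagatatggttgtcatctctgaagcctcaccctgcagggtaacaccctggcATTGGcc
Hbb-y, chr7:103853217-103853357, minus strand, 141 bases: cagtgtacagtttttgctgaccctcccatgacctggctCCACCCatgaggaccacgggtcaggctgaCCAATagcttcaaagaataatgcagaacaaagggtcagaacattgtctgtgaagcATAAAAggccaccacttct
The RefSeq windows, 250 bases before to 50 after the start, were given for 7 of the 8 genes, Hbb-bh1 being the exception. The windows of Hba-a1 and Hba-a2 were identical over the 297 bases in which they overlap after a shift of 3 bases. In the whole windows, CCAAT was present for 5 of the 7 genes (Hba-a1, Hba-a2, Hbb-bs, Hbb-bt and Hbb-y) against 37.4% of 32851 mouse promoter windows. CCACCC was present for 5 (Hba-a1, Hba-a2, Hba-x, Hbb-bt and Hbb-y) against 31.5%, and CACACCC for Hbb-bs alone against 7.95%. ATATAA was present for 5 (the 4 adult genes and Hba-x) against 9.82%, and ATAAAA for Hbb-y alone against 18.5%. AGATAA was present for Hbb-bs and Hbb-bh2 against 11.2%. A match describes letters in a window and is not a binding site.

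Globin rows took 0.923 to 8.50% of all whole reads in the 13 libraries labelled lymph node and 0.00891 to 0.0812% in the 20 labelled spleen, and the ranges did not overlap. By library, the share under the lymph node label was 8.50, 4.11 and 6.68% without NAM, 5.49 and 2.80% at 1 day, 3.92, 0.923, 2.54 and 3.08% at 3 days and 3.19, 2.32, 2.88 and 3.35% at 14 days. All 4 libraries at 3 days and all 4 at 14 days lay below the 3 untreated ones, whereas 1 of the 2 at 1 day did. The group values were 6.43 ± 2.21 (SD, n = 3), 4.14 ± 1.90 (SD, n = 2), 2.61 ± 1.26 (SD, n = 4) and 2.93 ± 0.456 (SD, n = 4) percent. In libraries labelled spleen they were 0.0258 ± 0.0132 (SD, n = 5), 0.0401 ± 0.0238 (SD, n = 5), 0.0241 ± 0.00892 (SD, n = 5) and 0.0331 ± 0.0140 (SD, n = 5) percent, with overlapping ranges in all groups. The widest Wilson 95% interval of a share was ± 0.00925 percentage points and covers counting error only. In bulk RNA a lower share from fewer cells of a type cannot be told apart from less RNA per cell.

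Per 1000 coding bases, the level in untreated libraries labelled lymph node was 1976552 ± 658809.7 (SD, n = 3) normalised counts for Hbb-bs, 1711929 ± 608052 (SD, n = 3) for Hba-a1, 936688 ± 357011 (SD, n = 3) for Hba-a2 and 567702 ± 210289 (SD, n = 3) for Hbb-bt. The order Hba-a1, Hba-a2, Hbb-bt held in 13 of 13 libraries with this label and 20 of 20 labelled spleen. Hbb-bs lay above Hba-a1 in 12 of 13 and 14 of 20, so the leading pair was not ordered in every library, and the group spreads of Hbb-bs and Hba-a1 overlapped.

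The beta-like genes of early life were near the limit of detection. Hbb-bh1, an embryonic beta-like gene, had reads in 13 of 13 libraries labelled lymph node (4.48 to 20.7 normalised counts) and 16 of 20 labelled spleen (0 to 13.1). Hbb-y, the epsilon-type embryonic gene, had 15 reads in all over 9 libraries labelled lymph node and 0 under the spleen label. Hba-x, the zeta-type embryonic gene, had 2 reads, in 1 library labelled lymph node at 1 day, and 0 under the spleen label. Hbb-bh2 had 0 reads in 33 libraries. A count of 0 over a label allows up to 3 reads, which is 4.62 in 1000000000 reads for libraries labelled spleen and 6.26 for those labelled lymph node. A filter at a mean normalised count of 10 over a label kept the 4 adult genes under both labels and Hbb-bh1 under the lymph node label only.

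Hbb-bh1 had few reads beside the adult beta genes. Summed over libraries, it had 66 reads beside 91363 adult beta reads under the spleen label, 722 per 1000000 (exact Poisson 95% interval 559 to 919, counting error only). Under the lymph node label it had 149 beside 8729280, 17.1 per 1000000 (14.4 to 20.0). By library the rate ran from 0 to 2778 under the spleen label, where 4 of 20 libraries were at 0. Those labelled lymph node spanned 8.45 to 84.5, which overlaps that range. Across the 13 libraries labelled lymph node, the Pearson r of log2 values with Hbb-bs was 0.02 for Hbb-bh1, against 0.99 for Hba-a1, 0.99 for Hbb-bt and 0.996 for Hba-a2, given as a description. The 13 points share a scaling, and Hbb-bh1 rested on 149 reads in all.

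At 3 days of NAM under the lymph node label, the means of the 4 adult globin genes were below those of untreated libraries, with fitted log2 fold changes of -1.35 to -1.79, and 1 of them, Hbb-bt, passed the test. The comparison asks what transcripts change in lymphoid organs early after NAM. Changes were tested on log2(normalised count + 1) with limma, two-sided, with Benjamini-Hochberg adjustment over 18215 rows and a threshold of 0.05. Of the 5 globin genes tested 1 was called, beside 1.24% of all rows (0.906% in the lower direction).
Hbb-bt, the adult beta gene with fewer reads, had 339104, 153446 and 263629.7 normalised counts in the 3 untreated libraries and 127647, 26017, 76894 and 88727 in the 4 at 3 days. Replicate 2 at 3 days was the lowest, and every library at 3 days lay below every untreated one. The log2 fold change was -1.79 ± 0.40 (SE), and Hbb-bt fell with an adjusted p of 0.0378 by limma. No call of Hbb-bt was made without untreated replicate 1 or 3, or without replicate 3 at 3 days, with limma adjusted p of 0.166, 0.122 and 0.0734. Without the lowest library the log2 fold change was -1.33 with a limma adjusted p of 0.0426. The call was also missed with edgeR (adjusted p = 0.0501), with no filter on low values (limma adjusted p = 0.0635) and with only the 2 groups compared in the fit (limma adjusted p = 0.101), and was made by DESeq2 (adjusted p = 0.0143).
Hbb-bs, the adult beta gene with more reads, had 1152962, 570520.2 and 909285 in untreated and 534263, 131009.9, 359371 and 396876 at 3 days. These groups did not overlap either, as was so in the lower direction for 7.25% of all rows. Its log2 fold change was -1.41 ± 0.36 (SE), with a limma adjusted p of 0.0711, which missed the threshold.
The alpha gene Hba-a1 had 987589, 466505 and 749158 in untreated and 466675, 104007, 318380.4 and 374968 at 3 days, a log2 fold change of -1.35 ± 0.38 (SE) and a limma adjusted p of 0.108. Replicate 1 at 3 days lay just above untreated replicate 2, and the other 3 lay below all untreated libraries. Hba-a2 had 549428, 243662 and 412427 and 248294, 57698, 172482 and 201879, a log2 fold change of -1.35 ± 0.39 (SE) and a limma adjusted p of 0.118, with the same library above untreated replicate 2. Their 95% intervals, -2.16 to -0.54 and -2.18 to -0.52, lay below 0.
Hbb-bh1 had 13.3, 19.8 and 11.05 in untreated and 11.05, 13.3, 10.01 and 5.39 at 3 days, a log2 fold change of -0.55 ± 0.47 (SE) with a limma adjusted p of 0.632. Its 95% interval was -1.54 to 0.45.

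**Figure D1:**
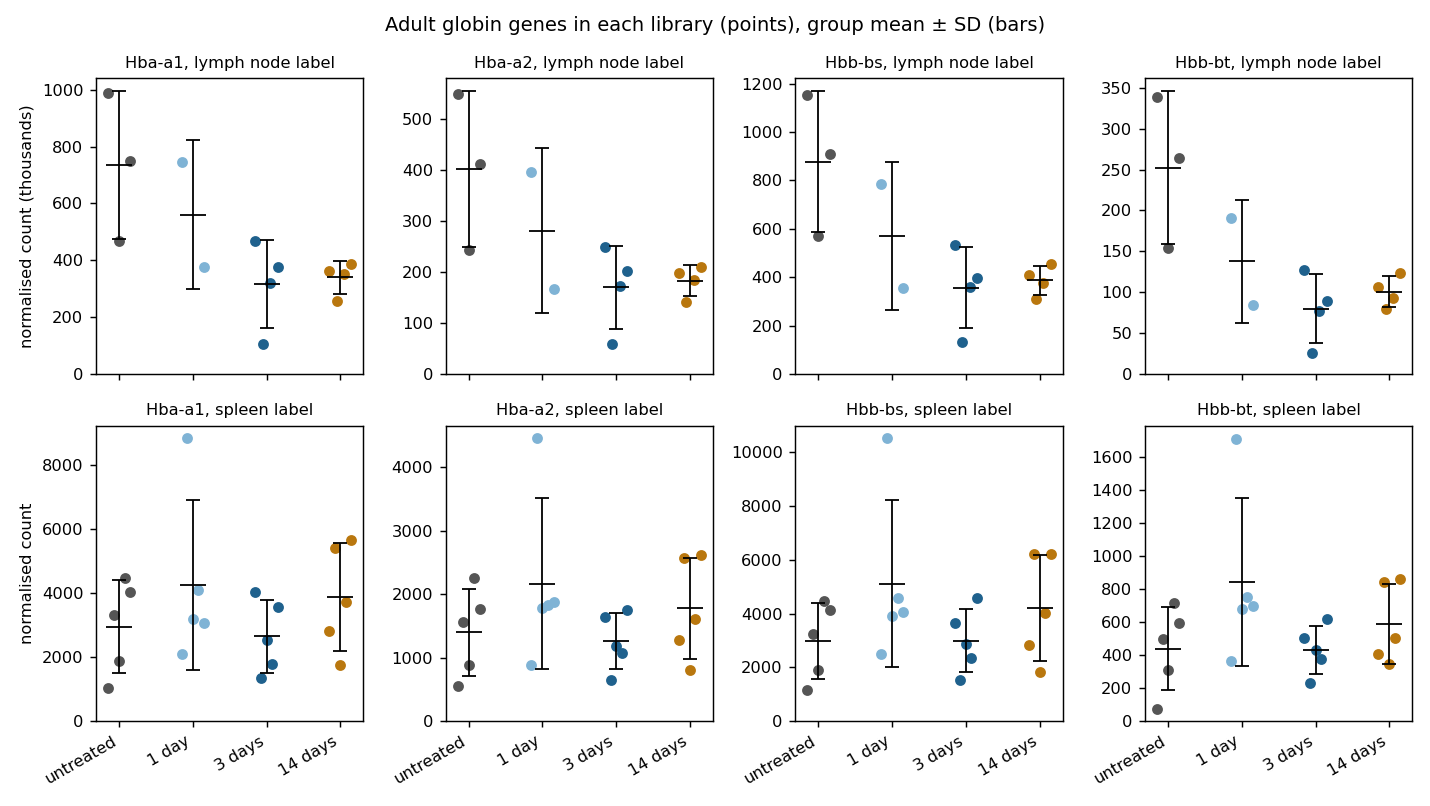
Normalised read counts of the 4 adult globin genes in each library (points) by group, with the mean and SD (bars), on linear axes that start at 0; the upper row holds the lymph node label in units of 1000 and the lower row the spleen label. Under the lymph node label, all libraries at 14 days lay below all untreated ones for each of the 4 genes, and under the spleen label replicate 2 at 1 day stood highest.

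At 14 days under the lymph node label, the 4 adult genes were below every untreated library in all 4 treated ones, with fitted log2 fold changes of -1.06 to -1.27. None of the 5 genes tested passed the limma threshold, while the 4 adult genes had an unadjusted p under 0.05, as had 11.8% of all rows, and edgeR and DESeq2 called 0. Of all rows 0.791% were called (0.681% lower), and 6.02% had treated libraries that all lay below the untreated ones. The count for Hbb-bt was 106046, 78828, 93227 and 123650.1, and its log2 fold change was -1.27 ± 0.40 (SE) with a limma adjusted p of 0.183. Hbb-bs had 410681, 307674, 374469 and 452609, with a log2 fold change of -1.14 ± 0.36 (SE) and a limma adjusted p of 0.192. The libraries at 14 days were closer to each other than those of any other group with this label. Hba-a1 had 362932, 257108, 349962 and 388311 and Hba-a2 had 197668, 141504, 183842 and 209430.1, with log2 fold changes of -1.06 ± 0.38 (SE) and -1.07 ± 0.39 (SE) and limma adjusted p of 0.256 and 0.266. Hbb-bh1 had 4.76, 20.7, 12.6 and 9.98, spanning its untreated values, with a log2 fold change of -0.39 ± 0.47 (SE).
Between 14 and 3 days, the log2 differences of the adult genes were 0.28 (Hbb-bs) to 0.52 (Hbb-bt), and none was called by limma, beside 0.011% of all rows. All 5 unadjusted p-values were above 0.05, and 5.84% of all rows were under it. The widest adult 95% interval, that of Hbb-bt, ran from -0.26 to 1.31. The order of the group means was untreated, 1 day, 14 days and 3 days for each adult gene, and each group overlapped its neighbours in this order.

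At 1 day under the lymph node label, which had 2 libraries, the adult genes were not distinguishable from untreated. Hba-a1 had 746004 and 375155, Hba-a2 396335 and 166333, Hbb-bs 787401 and 355369.9 and Hbb-bt 191199 and 84516 normalised counts. In each pair replicate 1 lay within the untreated range and replicate 2 below it. The log2 fold changes were -0.41 (Hba-a1), -0.57 (Hba-a2), -0.67 (Hbb-bs) and -0.91 (Hbb-bt), with limma adjusted p of 0.386 to 0.734, beside 1.21% of all rows called. Hbb-bh1 had 8.27 and 4.48, both below all untreated libraries, with a log2 fold change of -1.10 ± 0.56 (SE) and a limma adjusted p of 0.371. Treated libraries all lay below the untreated ones for 15.5% of all rows in this comparison. Replicate 1 at 1 day also carried pancreatic acinar transcripts. The summed count of that marker list was 130153 in it and 1107 in replicate 2, against 1215 to 1279.9 in untreated libraries, where 5 of its 11 markers (Cela2a, Cela3b, Pnlip, Ctrb1 and Clps) were at 0. Its part in the globin values was not tested.

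**Figure D2:**
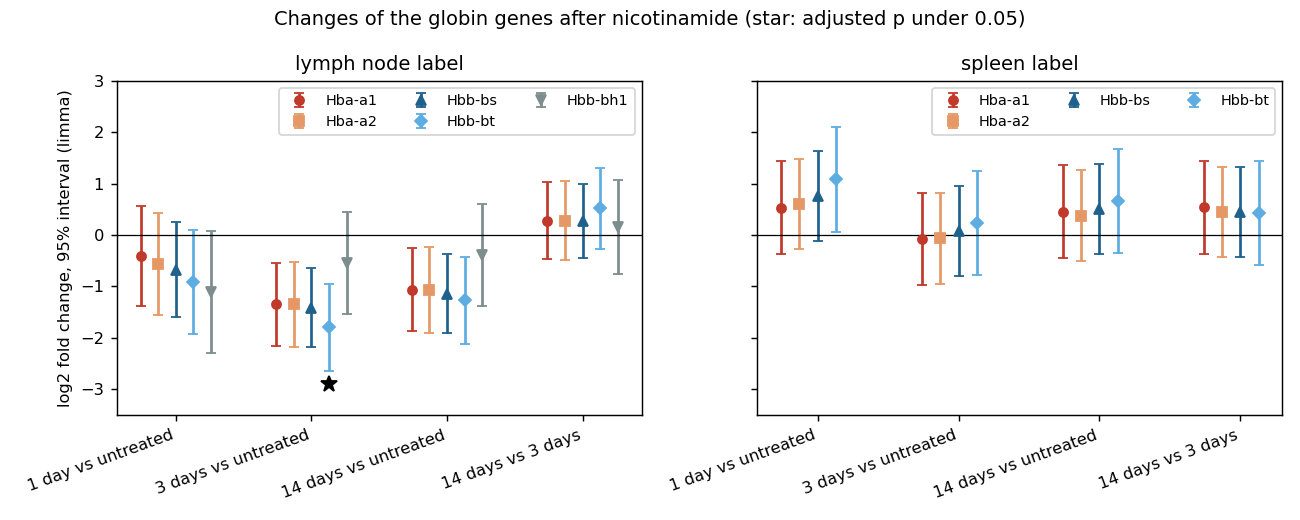
Log2 fold changes of the globin genes with their 95% intervals from limma, for 3 comparisons with untreated libraries and for 14 against 3 days, under the lymph node label (left) and the spleen label (right). The star marks Hbb-bt at 3 days, the only value past an adjusted p of 0.05; for the lymph node label, intervals of the adult genes at 3 and 14 days lie below 0.

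No globin gene was called by limma at any duration under the spleen label, beside 16.6% of all rows at 1 day, 5.55% at 3 days, 0% at 14 days and 1.05% between 14 and 3 days. Hbb-bt at 1 day was the only one of these values with an unadjusted p under 0.05, which 30.9% of all rows had at 1 day, 22% at 3 days, 2.8% at 14 days and 16.7% between 14 and 3 days. It had 76.2, 498, 311, 717 and 593 normalised counts in untreated libraries and 364, 1708, 677, 753 and 699 at 1 day. The ranges overlapped, with replicate 1 lowest in untreated and replicate 2 highest at 1 day. The log2 fold change was 1.09 ± 0.49 (SE) with a limma adjusted p of 0.135. The same library led the other adult genes. Hbb-bs had 1170.5, 3245, 1909, 4462 and 4141 in untreated and 2505, 10516, 3909, 4590.0 and 4048 at 1 day, a log2 fold change of 0.77 ± 0.42 (SE) with a limma adjusted p of 0.224. In the order untreated, 1, 3 and 14 days, the ranges of Hba-a1 were 1030.2 to 4454, 2089 to 8829, 1333 to 4019 and 1742 to 5659, and those of Hba-a2 were 547 to 2250.5, 884 to 4459, 654 to 1745 and 803 to 2618. All of these ranges overlapped.
Marker sums of other cells reached higher values in some libraries at 1 day under the spleen label, while few of their genes were called. The summed count of 9 adipocyte genes was 39769 to 218544 in untreated libraries and 132614 to 565929 at 1 day, and it was highest, 565929, in replicate 2, the library with the highest globin values. The median log2 fold change of this list was 1.02, with 1 of 9 genes called higher by limma, against a median of 0.01 over all rows. For 10 neutrophil genes the sums were 826 to 2012 and 1264 to 11769, highest in replicate 3, with a median of 1.43 and 1 of 10 called higher. Both counts are to be read beside the 16.6% of all rows called in this comparison, in either direction. Both pairs of ranges overlapped. Their part in the globin values was not tested.
At 3 days the log2 fold changes of the 4 adult genes ran from -0.08 (Hba-a1) to 0.24 (Hbb-bt), and at 14 days from 0.38 (Hba-a2) to 0.66 (Hbb-bt). The 95% interval of Hbb-bs was -0.81 to 0.95 at 3 days and -0.37 to 1.39 at 14 days.

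The changes under the 2 labels were set side by side for the 4 adult genes at 3 durations. At 14 days the difference of log2 changes was 1.94 for Hbb-bt (spleen label minus lymph node label), 1.65 for Hbb-bs, 1.52 for Hba-a1 and 1.45 for Hba-a2. Treated and untreated libraries were permuted within each label, in an exact two-sided test whose null is no change under either label. The smallest p adjusted over the 12 exact permutation tests was 0.106, and none passed the threshold. Without replicate 3 at 14 days under the spleen label, 4 of the 12 passed. The 12 are not independent, since the genes form near-identical pairs and the durations share untreated libraries. Whether the change was equal under both labels was not tested.

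Ratios within a library do not depend on the scaling and are given without a test. Alpha reads over beta reads were 1.03, 0.981 and 0.990 in untreated libraries labelled lymph node, 1.17 and 1.23 at 1 day, 1.080, 1.03, 1.13 and 1.19 at 3 days and 1.085, 1.03, 1.14 and 1.04 at 14 days. Of the 10 treated libraries 9 lay above all 3 untreated ones, the exception being replicate 2 at 3 days. With the spleen label the untreated values were the higher ones, 1.22 to 1.30, and all 5 libraries at 1 day (1.04 to 1.10) lay below them, as did 4 of 5 at 3 days and 4 of 5 at 14 days. At 1 day the 2 labels thus lay on opposite sides of their untreated libraries, and this difference was not tested.
Hbb-bs over Hbb-bt was 3.400, 3.72 and 3.45 in untreated libraries labelled lymph node and 4.19, 5.04, 4.67 and 4.47 at 3 days, which did not overlap. It was 4.12 and 4.205 at 1 day and 3.87, 3.90, 4.02 and 3.66 at 14 days. In the libraries labelled spleen it ran from 5.30 to 15.4 over 20 libraries, the highest being untreated replicate 1. Hba-a1 over Hba-a2 was 1.84 ± 0.0628 (SD, n = 3) in untreated and 1.85 ± 0.0323 (SD, n = 4) at 3 days under the lymph node label, a difference smaller than the spread. The share of reads that fit both copies limits the last 2 ratios.

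**Figure D3:**
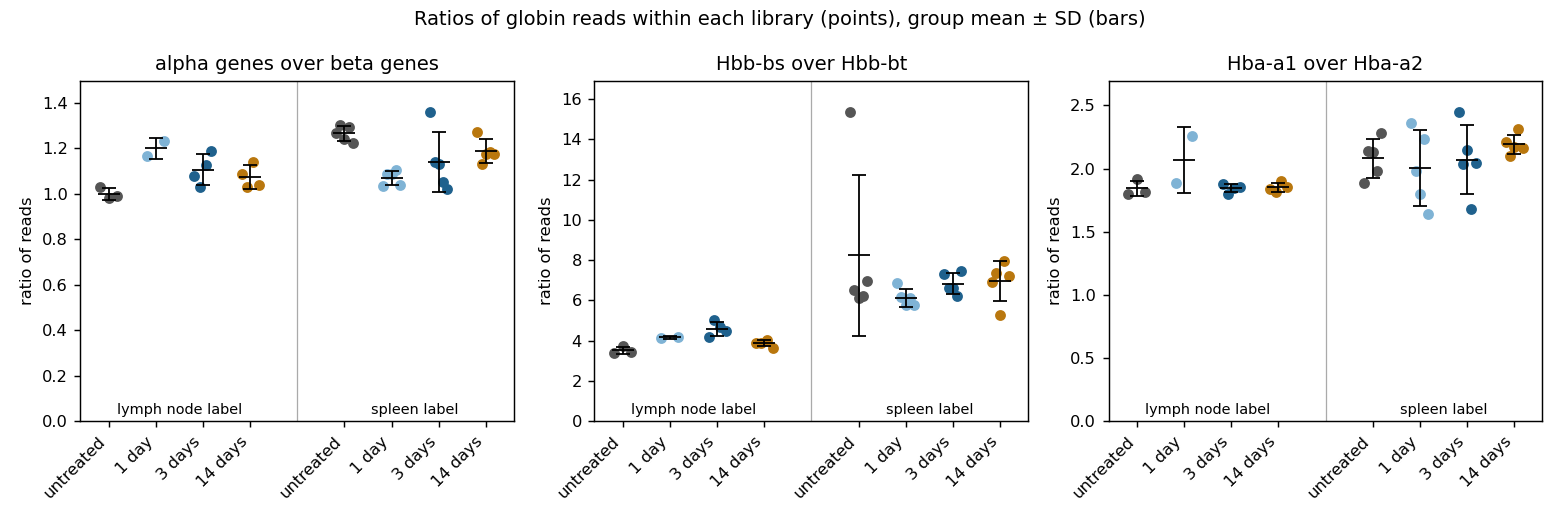
Ratios of whole reads within each library (points), with group mean and SD (bars), for alpha over beta genes, Hbb-bs over Hbb-bt and Hba-a1 over Hba-a2; linear axes start at 0. Under the lymph node label Hbb-bs over Hbb-bt at 3 days lay above all untreated libraries, and under the spleen label alpha over beta at 1 day lay below all untreated libraries.

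Erythroid genes other than the globins fell in part at 3 and 14 days with the lymph node label. Of 59 genes tested in 4 lists (haem synthesis, erythroid transcription factors, red cell membrane, red cell enzymes and maturation), 40 fell and 0 rose at 3 days by limma, beside 0.906% of all rows called lower, with a median log2 fold change over the 59 of -1.04 against 0.00 over all rows. At 14 days 20 fell and 0 rose, beside 0.681% of all rows called lower, with a median of -0.99. At 1 day 1 of 59 fell, beside 1.21% of all rows called in either direction. Leaving out untreated replicate 2 brought the count at 3 days from 40 to 26 and the count at 14 days from 20 to 7. At 14 days, leaving out untreated replicate 3 gave 11 and leaving out replicate 1 at 14 days gave 13. The gene lists were not independent of earlier results of these data.
Red cell membrane genes showed the greatest median change of the 4 lists at 3 days, -3.32, with 16 of 17 lower and only Gypc not called (-0.30 ± 0.09, SE). Slc4a1, the anion exchanger band 3, went from a mean normalised count of 3156 to 236, a log2 fold change of -4.38 ± 0.72 (SE) with a limma adjusted p of 0.00375. Epb42, protein 4.2 of the membrane skeleton, went from 333 to 28.6 (-4.48 ± 0.83). At 14 days Add2 (beta adducin, -2.72 ± 0.60) and Ermap (-2.43 ± 0.42) led the 5 membrane genes that passed.
Of the haem synthesis list, which holds the enzymes and carriers that make haem and bring in iron, 8 of 15 fell at 3 days and 5 of 15 at 14 days. Alas2, the first enzyme of haem synthesis in red cell precursors, went from 20432 to 6853 at 3 days (-1.73 ± 0.40, limma adjusted p = 0.0452). Tspo2 changed by -2.74 ± 0.38 at 3 days and -1.91 ± 0.38 at 14 days. Tfrc, the transferrin receptor, changed by -0.76 ± 0.16 at 3 days (limma adjusted p = 0.0303). Ahsp, the alpha haemoglobin chaperone, was not analysed here.
Of 13 transcription factors 5 fell at 3 days and 3 at 14 days. Klf1, which binds CACCC boxes of globin promoters, went from 534 to 67.6 at 3 days (-3.18 ± 0.48, limma adjusted p = 0.00213), and Gata1 from 429 to 176 (-1.22 ± 0.21). Sox6 changed by -2.42 ± 0.54 at 3 days and Gfi1b by -2.28 ± 0.21 at 14 days. Bcl11a and Zbtb7a, which repress fetal and embryonic globins, were not called at 3 days, with -0.26 ± 0.11 and -0.04 ± 0.10.
Of 14 enzyme and maturation genes 11 fell at 3 days and 7 at 14 days. Trim10 changed by -3.54 ± 0.65 and Pklr, the red cell pyruvate kinase, by -3.27 ± 0.42 at 3 days. At 14 days Pklr changed by -3.20 ± 0.42 and Car1, a carbonic anhydrase, by -1.94 ± 0.33. Epor, the erythropoietin receptor, changed by -0.86 ± 0.18 at 3 days and -1.17 ± 0.18 at 14 days. All values in parentheses are log2 fold changes with their SE.
With the spleen label 9 of 45 tested erythroid genes were called at 1 day (5 higher, 4 lower), beside 16.6% of all rows. With only the 2 groups compared in the fit 4 were called, and 3 with an unadjusted p of at most 0.05 and a fold change of at least 1.5, while leaving out untreated replicate 1 gave 5. The count was 1 at 3 days (Zfpm1, a GATA1 partner, -0.39 ± 0.11) and 0 at 14 days. The count at 3 days was 0 with no filter, with only the groups compared and with 9 of the 10 libraries left out 1 at a time, 9 without replicate 1 at 3 days and 17 with library weights. The shares of all rows called under these other settings are not reported here. At 14 days 0 of all 18243 rows passed limma and 510 had an unadjusted p under 0.05, and edgeR and DESeq2 gave 0 of the 45 erythroid genes.

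**Figure D4:**
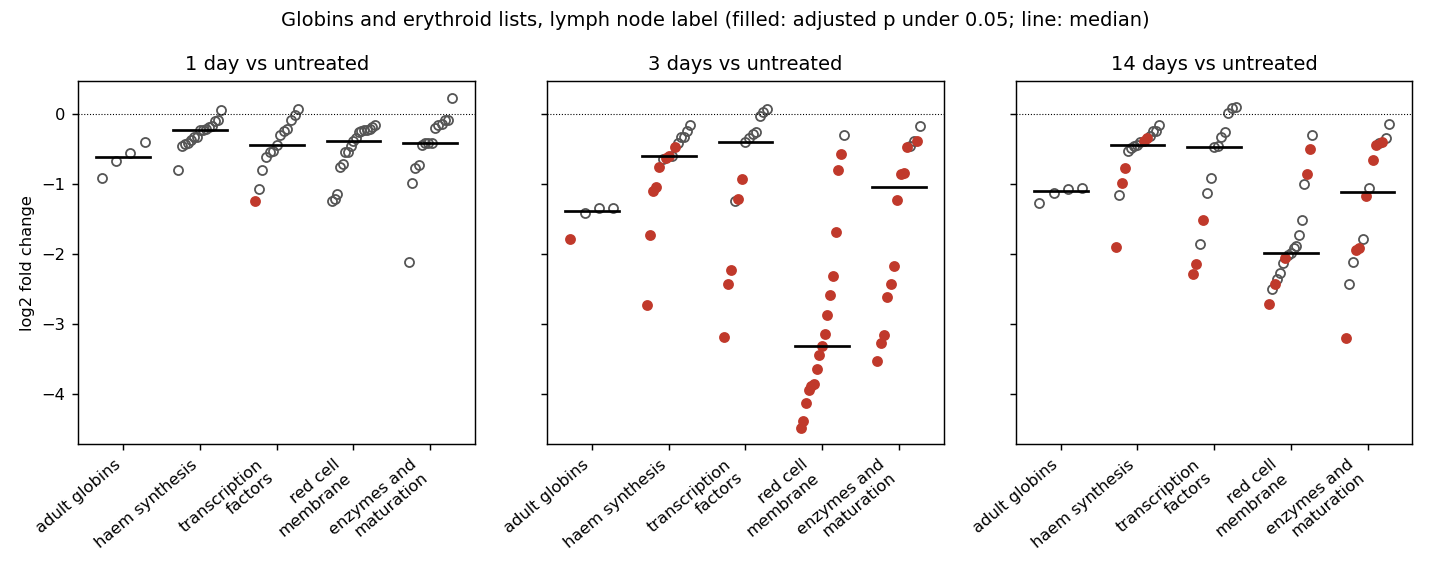
Log2 fold changes of single genes against untreated libraries under the lymph node label at 1, 3 and 14 days, for the 4 adult globins and 4 erythroid lists; filled points passed a limma adjusted p of 0.05, open points did not, and bars mark medians. At 3 days most red cell membrane genes lie below the adult globins.

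Set against the globin reads of the same library, Slc4a1, Klf1 and Alas2 were each below all untreated libraries at 3 days under the lymph node label. Slc4a1 had 0.590, 2.09 and 2.01 reads per 1000 adult globin reads in untreated libraries labelled lymph node, 0.866 and 2.78 at 1 day, 0.461, 0.103, 0.110 and 0.165 at 3 days and 0.322, 1.26, 0.235 and 1.13 at 14 days. It lay below all untreated libraries in 0 of 2 libraries at 1 day, 4 of 4 at 3 days and 2 of 4 at 14 days. Klf1 had 0.127, 0.557 and 0.179 in untreated, 0.0842 and 0.325 at 1 day, 0.0867, 0.0638, 0.0432 and 0.0854 at 3 days and 0.0603, 0.168, 0.0948 and 0.173 at 14 days, and was below all untreated libraries in 1 of 2 libraries at 1 day, 4 of 4 at 3 days and 2 of 4 at 14 days. Alas2 had 8.93, 9.03 and 9.13 in untreated, 7.81 and 7.63 at 1 day, 7.48, 6.57, 7.71 and 7.41 at 3 days and 8.31, 9.03, 8.51 and 9.01 at 14 days, with 2 of 2 libraries at 1 day, 4 of 4 at 3 days and 2 of 4 at 14 days below all untreated ones. Under the spleen label Alas2 lay below all untreated libraries in 0 of 5 at each duration, and above them in 3 of 5 at 1 day, 1 of 5 at 3 days and 1 of 5 at 14 days. Slc4a1 and Klf1 had an untreated library at 0 there, so no library could lie below. These 3 ratios were chosen after the values were seen and carry no test.

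Outside the globin rows, the gene whose pattern was most like that of Hbb-bs, the globin gene with the highest mean count, was Alas2 under both labels, with a Pearson r of log2 values of 0.99 over 13 libraries labelled lymph node and 0.94 over 20 labelled spleen. The next under the lymph node label were Bpgm (r = 0.98), which encodes the red cell enzyme that makes bisphosphoglycerate, Mkrn1 (0.96), Ube2l6 (0.95), Fam220a (0.94) and Gm10371 (0.89). For the spleen label they were Ociad2 (0.89), Mcee (0.88), Trpv1, Rgl3 and Apoc1 (0.88 each for the last 3). These correlations are descriptions over libraries that share a scaling.

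The table also holds 11 rows without a symbol that overlap adult globin genes and are 23 to 59 bases long. Under the lymph node label 4 of them passed the filter on low values, and 2 of these 4 reached it only through the untreated libraries, so those 2 are given as values with no test. The other 7 did not pass. GSMG0034942 (chr7:103827869-103827927) lies in the first exon of Hbb-bs, across the 5′ UTR and the first coding bases. It had 327 ± 63.0 (SD, n = 3) normalised counts in untreated libraries, 34.1 ± 7.23 (n = 2) at 1 day, 45.5 ± 32.2 (n = 4) at 3 days and 80.6 ± 15.3 (n = 4) at 14 days. No treated library reached the lowest untreated one, 255. It fell at 1 day and at 3 days, with log2 fold changes of -3.22 ± 0.57 and -3.18 ± 0.47 (SE) whose adjusted p from limma was 0.00971 and 0.00190, and its value at 14 days was -2.01 ± 0.47 (SE) with 0.0594.
GSMG0034941 (chr7:103813863-103813921), at the same place in Hbb-bt, had log2 fold changes of -3.20 ± 0.59 at 1 day and -3.15 ± 0.49 at 3 days (SE), both called by limma, and -2.07 ± 0.49 at 14 days, with a limma adjusted p of 0.0618, not called. GSMG0054294 (chr11:32284375-32284397), across the end of the Hba-a1 coding sequence and the start of its 3′ UTR, had mean normalised counts, in the order untreated, 1, 3 and 14 days, of 29.98 ± 9.13 (SD, n = 3), 2.92 ± 0.620 (SD, n = 2), 3.23 ± 1.70 (SD, n = 4) and 8.58 ± 1.80 (SD, n = 4). GSMG0058595 (chr7:103813450-103813473), in the second coding exon of Hbb-bt, had 81.6 ± 21.6 (SD, n = 3), 2.89 ± 4.09 (SD, n = 2), 2.76 ± 5.52 (SD, n = 4) and 14.6 ± 10.7 (SD, n = 4) in the same order. Whether reads of these rows are also counted in the globin gene is not given in the sources used here. Of rows of at most 59 bases outside the globin genes, 136 were tested, of which 0 were called lower at 1 day and 0 at 3 days, with median log2 fold changes of -0.03 and -0.04.

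The theta globin genes Hbq1a and Hbq1b, which lie in the alpha cluster beside the members and were named after their values were seen, had far fewer reads than the adult genes. Hbq1b (chr11:32286963-32287912) had 170.3 ± 69.1 (SD, n = 3) without NAM under the lymph node label, 137 ± 29.1 (n = 2) at 1 day, overlapping untreated, 29.1 ± 17.3 (n = 4) at 3 days and 56.7 ± 26.3 (n = 4) at 14 days, and fell at 3 days, with a log2 fold change of -2.64 ± 0.41 (SE) and a limma adjusted p of 0.00275. In the order untreated, 1, 3 and 14 days, Hbq1a had 66.0 ± 23.5, 24.9 ± 20.9, 32.4 ± 16.1 and 21.8 ± 4.93. The libraries at 1 and 14 days lay below all untreated ones, those at 3 days overlapped them, and no value was called.

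Of 7 tested genes of haemoglobin and haem clearance 0 were called at 3 days with the lymph node label. The summed count of all 8 listed genes, which include Hpx, not tested because of its low count, lay below the untreated range both then and at 14 days. In the order untreated, 1, 3 and 14 days the sum was 61329 to 71806, 64960.1 to 69250.3, 41884 to 60507 and 36670.1 to 54358 normalised counts, and the median log2 fold change over the 7 tested genes was -0.02 at 3 days and -0.05 at 14 days. Slc40a1, the iron exporter ferroportin, had log2 fold changes of -0.29 ± 0.11 at 3 days and -0.47 ± 0.11 (SE, limma adjusted p = 0.0550) at 14 days. Hmox1 at 3 days went from 43052 to 30785 (-0.50 ± 0.16, SE), with a limma adjusted p of 0.157 that missed the threshold. At 14 days 1 of 7 passed, Hmox1, which opens the haem ring, beside 0.681% of all rows called lower. It went from 43052 to 25367 (-0.79 ± 0.16, SE, limma adjusted p = 0.0304). Hp, haptoglobin, which binds free haemoglobin in plasma, had log2 fold changes of 0.12 ± 0.38 at 3 days and 0.62 ± 0.38 at 14 days.
Markers of other cells moved in part with the groups under the lymph node label. Of all rows 1.21% were called at 1 day in either direction, 1.24% at 3 days (0.906% lower) and 0.791% at 14 days (0.681% lower). The counts of called markers below are to be read beside these shares. Over the 10 neutrophil genes the summed count, in the order untreated, 1, 3 and 14 days, was 13986 to 25794, 28144 to 38203, 16746 to 27893 and 11625 to 20257, with 0 of 10 called at 3 days and 2 of 10 lower at 14 days. Over 11 platelet and megakaryocyte genes it was 13367 to 13997, 13972 to 16756, 8233 to 16093 and 7548 to 11506, with 0 of 11 called at 3 days and 1 lower at 14 days. Over 10 proliferation genes 0 were called at 3 or 14 days, with medians of -0.32 and -0.37. Spleen red pulp and mesenchyme genes summed to 19177 to 21168, 19281 to 21565, 18227 to 23212 and 14419 to 20218, with 0 of 7 called. Of 6 lymph node endothelium genes tested, 1, Ccl21a, was higher at 1 day and 0 were called later. The sums over the 7 listed were 7099 to 9535, 13823 to 15518, 9833 to 14202 and 8815 to 12642, so that all libraries at 1 and 3 days lay above the untreated ones. Ccl21a alone had means of 7300, 13561, 10459 and 9339 in the same order, so the sums mostly followed that gene. The other genes went both ways: at 3 days Prox1 changed by -0.56 and Fut7 by 0.36, neither called by limma. Of 5 adipocyte genes tested 0 were called at each duration. The platelet sum at 14 days lay below all untreated libraries, and the neutrophil sum at 1 day above them. No marker of the neutrophil, platelet, proliferation or red pulp lists was at 0 in any group. Their part in the globin values was not tested.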

How the data were processed

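RNA-seq of 33 mouse libraries was analysed from 1 table. The authors deposited normalised counts (signal), which are read counts divided by a DESeq2 size factor. The submitters' processing notes name STAR 2.4.0, mm10, SAMtools, Picard, FastQC and DESeq2. The kit was TruSeq mRNA with paired-end reads, and strand and the handling of reads that match several places are not given in the sources used here. Low values stepped by whole reads, and 100.0% of values gave whole reads within a tolerance of 0.01 of a step, so depth per library is known. No library pair of a group held identical values (0 of 56 pairs).

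Groups came from the labels. Rows with a mean normalised count of at least 10 over a label were tested as log2(value + 1) with limma 3.58.1 in R 4.3.3 with a mean-dependent prior, all 4 groups of a label in 1 fit, two-sided, with Benjamini-Hochberg adjustment at 0.05. Intervals cover 95%. Alternatives were other pseudocounts, no filter, TMM, globin-free size factors, scaling to non-globin reads, only the groups compared, library weights, a replicate block, calls by unadjusted p up to 0.05 and fold change from 1.5 (the unadjusted rule), edgeR 4.0.16 and DESeq2 1.42.0 on the whole reads, and each library left out. The test was checked on simulated data. Shared replicate numbers were not taken as pairs: same-numbered libraries deviated together (r over 0.1) in 13 of 30 pairs under the spleen label and 0 of 16 under the lymph node label.

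Named erythroid genes were those past the threshold with the largest changes in each list, plus a set panel, and genes outside this rule are marked as chosen after their values were seen. Some genes under this rule are not reported here. The globin genes and all gene lists were chosen with earlier results of these data known. Exact permutation tests used scipy 1.17.1, and coding sequences came from GENCODE vM21.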

Additional observations from a re-analysis of the deposited data

Results flagged for a closer look

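Under the spleen label, replicate 2 at 1 day stood far above the other 4 libraries of its group by Dixon's test of a single extreme value. It had 10516 normalised counts of Hbb-bs, the next highest being 4590.0. For Hba-a2 it had 4459 beside 1870.0, and for Hbb-bt 1708 beside 753. Globin rows took 0.0812% of its reads, beside 0.0371% in the next library. These 4 values are not independent, since they share 1 library. Untreated replicate 1 with the same label had a ratio of Hbb-bs to Hbb-bt of 15.4, the next being 6.98. Of 49 groups tested 5 stood out in this way, and chance gives about 1 in 20, or 2.45. The cause was not tested.

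The ratio of alpha to beta globin reads at 1 day lay above all untreated libraries in 2 of 2 libraries labelled lymph node and below all in 5 of 5 labelled spleen. The change from untreated was -0.39 under the spleen label minus that under the lymph node label. The difference was not tested.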

How the results depend on the processing

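No called log2 fold change or difference turned its direction under any alternative, and uncalled ones changed sign 103 times. The 3630 alternatives over 193 results also include counts, shares and ratios, which have no direction to turn. Globin calls under the lymph node label at 3 days, 1 as reported, were 0 with no filter, with only the groups compared and with edgeR, and 4 with library weights, with the replicate block and with the unadjusted rule. At 14 days the count of 0 became 4 with the replicate block and 4 with the unadjusted rule, and under the spleen label at 1 day 0 became 1 with the unadjusted rule. Leaving out each library gave 0 to 2 globin calls at 3 days under the lymph node label. The shares of all rows called under these settings are not reported here, so these counts do not show whether the globins moved apart from other rows. The cause of these shifts was not tested.

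Erythroid calls under the lymph node label went from 20 to 34 at 14 days and from 0 to 13 between 14 and 3 days with the unadjusted rule. At 1 day the count of 1 became 2 with a pseudocount of 5, 3 with only the groups compared, 0 with library weights, 7 with the unadjusted rule, 2 with edgeR and 4 with DESeq2. Under the spleen label the 9 calls at 1 day became 4 with only the groups compared and 3 with the unadjusted rule. At 3 days the count of 1 became 0 with no filter, 0 with only the groups compared, 17 with library weights, 2 with the replicate block and 4 with DESeq2. Between 14 and 3 days 0 became 9 with library weights, 1 with the replicate block and 2 with DESeq2. With 1 library left out, the erythroid counts under the lymph node label ran from 26 to 39 (3 days), 7 to 23 (14 days) and 0 to 1 (1 day). For the spleen label they ran from 5 to 9 (1 day), from 0 to 9 (3 days) and from 0 to 5 (14 against 3 days). The shares of all rows called under the settings of this paragraph are not reported here, so whether all rows rose or fell alike cannot be read from these counts. The tests over both labels that passed ran from 0 to 4 of 12 tests. Where 1 library is left at 1 day, it is assumed to vary like the other groups.

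The replicate block pairs libraries that share only a number. The 140 alternatives of shares and ratios stayed within 1 SD of their group. Leaving out 1 library cannot move a group mean by that much, so those alternatives could not have failed. Only the shares with mitochondrial rows left out of the denominator could have, and they did not. Group sizes of 2 to 5 libraries, and for Hbb-bh1 the depth, limit what could be detected.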
